A study of Dipsacus asperoides with 9 samples.

Results

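Abscisic acid (ABA) is the plant hormone of drought, seed dormancy and restrained growth, and its core signalling chain has 3 kinds of protein. Soluble receptors of the PYR/PYL family bind ABA, and the bound receptor holds type 2C protein phosphatases (PP2C) of clade A in an inactive state. Without ABA these phosphatases remove phosphate from SnRK2 kinases and keep them off. Once released, the kinases phosphorylate the bZIP transcription factors of the ABF/ABI5 group, anion channels and NADPH oxidases. In roots the chain is known for its part in water uptake, root growth and salt tolerance, mostly from work in Arabidopsis.

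The 8 unigenes described here are 3 PYL receptors, 1 clade A PP2C and 4 SnRK2 kinases from the study's list of ABA signalling genes. A PYL9 receptor and the clade A PP2C HAB1 of that list were not analysed here. The 8 were taken by identifier from 65535 unigenes in the deposited expression table. They were selected on their stage differences in these same libraries, as differentially expressed genes (DEGs) of the study, so their differences between stages are given as a description, without a p-value. A unigene is a gene of the Trinity assembly. The gene names come from the best protein matches in other plants, so they place each unigene in a family but do not fix its ortholog.

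RNA-Seq covered 9 libraries of wild-type Dipsacus asperoides roots, a perennial herb whose root is used in Chinese medicine. The 3 stages were seedlings with one leaf (L1), seedlings with a second leaf (L2) and plants grown for 7 months (M7), with 3 biological replicates each and no treatment in this series. The sources used here do not say how many plants went into a replicate. All expression levels are in FPKM (fragments scaled for transcript length and library size), so the number of reads behind a single value is unknown. The roots were sequenced in bulk, so fewer cells of a type and less RNA per cell cannot be told apart. Whether whole roots or parts of them were taken is not stated.

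The M7 libraries stood apart from those of the seedlings. M7 replicates 1, 2 and 3 held 13430, 18794 and 17517 unigenes at 1 FPKM or above, whereas each L1 library held 26048 to 28468 and each L2 library 32849 to 34173. M7 replicate 1 was furthest from the rest, with a median ratio scaling factor of 0.589 against 0.910 to 1.16 in the other 8 libraries. L1 replicate 3 often lay away from its 2 partners. The summed level of 10 root marker unigenes (Casparian strip membrane proteins, SHORT-ROOT, SCARECROW and a root meristem growth factor) ranged from 44.0 to 56.2 FPKM over the L1 libraries, 32.9 to 36.8 over L2 and 0.810 to 2.28 over M7. Of these, 5 were under 0.1 FPKM in every M7 library, among them the unigene matched to Casparian strip membrane protein 1, listed at 0 in all of them. The 9 xylem marker unigenes (laccases, cellulose synthases and a xylem protease) summed to 75.7 to 81.3 FPKM per seedling library and 35.7 to 55.0 per M7 library. Most of the M7 sum came from 1 laccase-17-like unigene, TRINITY_DN13486_c0_g1, at 47.13, 52.26 and 34.46 FPKM. The 32 green tissue marker unigenes (chlorophyll-binding proteins and others of photosynthesis) summed to 134.8 to 178 FPKM per library of L1, 55.8 to 66.1 of L2 and 1245 to 3006 of M7. The M7 sum came almost wholly from 1 chlorophyll-binding protein unigene, TRINITY_DN22710_c0_g1, at 2912.61, 1196.47 and 2147.56 FPKM, and the other 31 summed to 48.87 to 93.75 FPKM per M7 library. Between M7 and L1, 12 of the 19 tested green tissue unigenes fell and 2 rose, and 15 of the 32 were under 0.1 FPKM in every M7 library. The part of these differences in the results below was not tested.

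The receptors were higher and the phosphatase far lower in 7-month roots. All 3 receptor unigenes and 1 kinase were highest in M7, while the phosphatase and the other 3 kinases were lowest there. Between M7 and L1 the libraries did not overlap for any of the 8 members, with 4 higher and 4 lower in M7. Over all 34925 tested unigenes the share that did not overlap in this way was 10.4% for higher and 38.6% for lower. The study's DEG rule (adjusted p under 0.05, a log2 fold change beyond 2 and an FPKM maximum over 30, read here as the highest stage mean) was passed by 3 members upward and 4 downward, against 1.41% and 3.73% of tested unigenes. Since that rule chose the members, nothing follows from these counts.

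**Figure D1:**
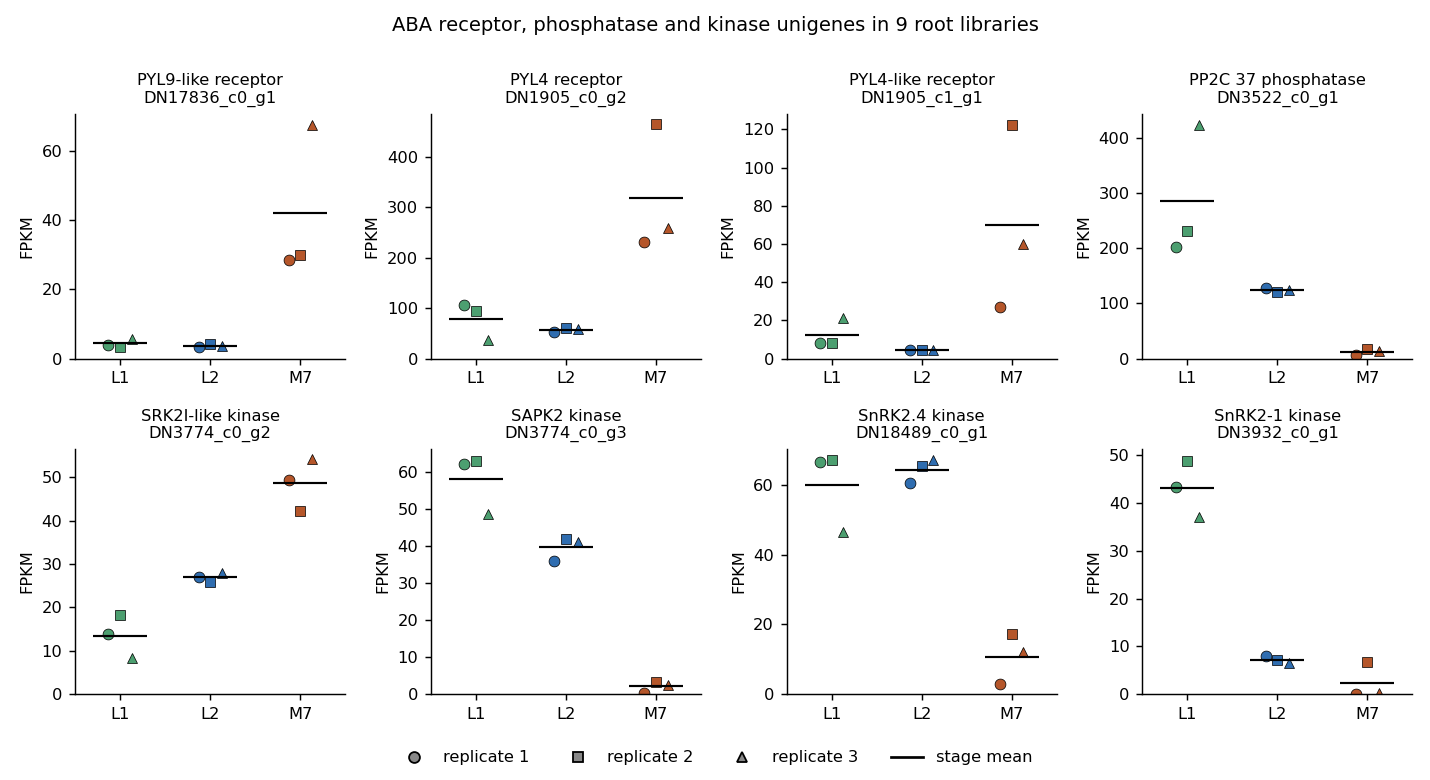
Expression of the 8 members, 1 panel each, with FPKM from 0 on the y axis and the stages L1, L2 and M7 on the x axis. Each point is a library (circle, square and triangle for replicates 1, 2 and 3) and the line is the stage mean of 3 libraries. The receptors and the SRK2I-like kinase were highest in M7, and the phosphatase and the other kinases were lowest there.

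The receptor with the largest difference in M7 was TRINITY_DN17836_c0_g1. Its best match in the file is a PYL9-like receptor, and the study's Swiss-Prot match is rice PYL3. It stood at 3.99, 3.42 and 5.70 FPKM in L1 and at 3.34, 4.29 and 3.55 FPKM in L2. The M7 libraries held 28.39, 29.98 and 67.74 FPKM. The seedling stages overlapped, and every M7 library lay above all 6 seedling libraries. The mean was 4.37 ± 1.19 FPKM for L1, 3.73 ± 0.499 for L2 and 42.0 ± 22.3 for M7 (SD, n = 3), which is 9.62-fold higher in M7 than in L1. On the log2(FPKM + 1) scale the difference between M7 and L1 was 2.91 (SE 0.35). The order of L1 and L2 was not settled, with a difference of -0.17 that came to 0.00 without L1 replicate 3.

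TRINITY_DN1905_c0_g2 carried the most receptor transcript. Its match in the file is an unnamed coffee protein, and the Swiss-Prot match is Arabidopsis PYL4, a receptor of the subfamily that is monomeric without ABA. Its L1 libraries held 107.11, 93.33 and 37.26 FPKM, and its L2 libraries 52.90, 61.06 and 58.43 FPKM. In M7 it reached 231.08, 464.47 and 258.32 FPKM. The lowest M7 library was above the highest seedling library, and L1 and L2 overlapped because of the low L1 replicate 3. The means were 79.2 ± 37 FPKM for L1, 57.5 ± 4.17 for L2 and 318 ± 128 for M7 (SD, n = 3), a 4.01-fold difference between M7 and L1. The log2 fold change was 2.06 (SE 0.42) between M7 and L1 and 2.38 between M7 and L2.

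A further PYL4-like unigene, TRINITY_DN1905_c1_g1, was the most uneven of the receptors. It stood at 7.95, 7.94 and 21.16 FPKM in L1 and at 4.49, 4.69 and 4.49 FPKM in L2, so that all L2 libraries were below all L1 libraries. The M7 values were 26.73, 122.44 and 60.14 FPKM. M7 replicate 1 was only a little above L1 replicate 3, the nearest seedling library. The mean was 12.4 ± 7.63 FPKM for L1, 4.56 ± 0.115 for L2 and 69.8 ± 48.6 for M7 (SD, n = 3), 5.65-fold higher in M7 than in L1. The log2 fold change between M7 and L1 was 2.29 (SE 0.56), and 3.28 when M7 replicate 1 and L1 replicate 3 were both left out.

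Both PYL4 members share the Trinity read cluster DN1905 with other unigenes, so reads of near-identical copies may have been split among them. Another PYL4-like unigene of that cluster, TRINITY_DN1905_c0_g3, was kept from the DEG rule by its stage means alone, although M7 replicate 3 reached 30.31 FPKM. Its stage means were 2.54, 6.37 and 17 FPKM for L1, L2 and M7, and it rose between L1 and M7 by 2.22 on the log2 scale (limma, adjusted p = 0.00439). The same cluster also held a unigene matched to 8-hydroxygeraniol dehydrogenase, TRINITY_DN1905_c0_g1, an enzyme name of the iridoid pathway and no receptor. Mean levels of this unigene were 9.71 ± 0.851 FPKM for L1, 5.10 ± 0.335 for L2 and 78.3 ± 46.5 for M7 (SD, n = 3). It was therefore also highest in M7 and lowest in L2, like TRINITY_DN1905_c1_g1.

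The most abundant receptor outside the members was matched to PYL8, which in Arabidopsis is known for a role in lateral root growth. This unigene, TRINITY_DN3179_c0_g2, averaged 52.4 ± 4.12 FPKM for L1, 54.2 ± 2.59 for L2 and 55.4 ± 26.4 for M7 (SD, n = 3). M7 replicate 1 held 25.25 FPKM and the other M7 libraries 66.31 and 74.58 FPKM. The difference between M7 and L1 was -0.06 (SE 0.38) on the log2 scale, with an adjusted p of 1 by limma. Of all FPKM in the 8 receptor unigenes (3 members and 5 others), the PYL8 unigene made up 34.0% ± 6.35 for L1, 42.1% ± 2.68 for L2 and 10.9% ± 3.83 for M7 (SD, n = 3). TRINITY_DN1905_c0_g2 made up 48.5% ± 16.3, 44.5% ± 0.446 and 63.8% ± 10.04 of it in the same stages. The PYL4-like TRINITY_DN27888_c0_g1, matched to quinoa of the Caryophyllales, stood at 4.30, 5.65 and 6.76 FPKM in L1 and was listed at 0 in every M7 library. The receptor pool of M7 thus held more PYL4-type transcript beside a PYL8 unigene whose mean level was near that of the seedlings. The PYL4 members were chosen for their difference between stages, so their larger share was partly fixed by that choice.

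TRINITY_DN3522_c0_g1 was the only PP2C among the members. Its match in the file is a protein phosphatase of kiwifruit, and the Swiss-Prot match is Arabidopsis PP2CA, a clade A phosphatase that is itself induced by ABA in Arabidopsis and holds the signal down. It was the highest of the 8 members in seedlings, with 202.89, 230.29 and 423.07 FPKM in L1. In L2 it stood at 126.95, 121.13 and 124.11 FPKM, and in M7 at 5.60, 17.57 and 13.33 FPKM. The 3 stages did not overlap and followed the order L1, L2, M7. The means were 285 ± 120, 124 ± 2.91 and 12.2 ± 6.07 FPKM (SD, n = 3). The L1 mean was 2.30-fold that of L2 and 23.5-fold that of M7, with a log2 fold change of -4.49 (SE 0.42) between M7 and L1. It was -3.73 when L1 replicate 3, the highest library, and M7 replicate 1, the lowest, were both left out.

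No other unigene that the lists took as a clade A PP2C by its description came near the seedling level of this member (HAB1 was not analysed here). The PP2C 37-like unigene TRINITY_DN3522_c0_g2, from the same read cluster, was at 0.407 FPKM in L1 and 1.59 in M7, a rise of 0.88 on the log2 scale (limma, adjusted p = 0.0273). The only other such unigene, a match to a beet PP2C 56 (TRINITY_DN29111_c0_g2), stood at 1.23, 1.09 and 1.81 FPKM in L1 and was listed at 0 in every M7 library. The summed level with both others was 287 ± 120 FPKM in L1 and 13.8 ± 6.18 in M7 (SD, n = 3).

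Receptor and phosphatase levels can be set against each other within a library, which removes any scaling of that library. The 3 receptor members summed to 96.0 ± 28.5 FPKM for L1, 65.7 ± 4.70 for L2 and 429.8 ± 169.6 for M7 (SD, n = 3). The receptor sum divided by the phosphatase level was 0.587, 0.455 and 0.152 in the L1 libraries. It was 0.478, 0.578 and 0.536 in L2, and 51.1, 35.1 and 28.97 in M7. The phosphatase member exceeded the sum of the 3 receptor members in all 6 seedling libraries, and the receptor sum exceeded it in all 3 M7 libraries. With all unigenes that the lists took as receptors or clade A PP2C summed, receptors were above in 2 of the 3 L2 libraries as well (135.66 against 121.88 FPKM and 131.86 against 124.98 FPKM). This sum depends on which names count as clade A. A PP2C 53 unigene (TRINITY_DN136_c0_g1), at 42.55, 44.08 and 45.23 FPKM in L2, was not counted in it. The mean log2 ratio was -1.54 ± 1.04 for L1, -0.92 ± 0.14 for L2 and 5.22 ± 0.42 for M7 (SD, n = 3). The difference between M7 and L1 was 6.76 on the log2 scale, and that between L2 and L1 was 0.62, less than the spread among L1 libraries. M7 replicate 1, the library with the lowest scaling factor, had the highest ratio. Both parts of the ratio were chosen for their difference between stages, so it has no test. For the PYL8 unigene, which was no DEG, the ratio to the same phosphatase was 0.204 ± 0.0787 for L1, 0.437 ± 0.0236 for L2 and 4.63 ± 0.916 for M7 (SD, n = 3). The phosphatase in that ratio was still a chosen member. The PYL8 unigene averaged 52.4, 54.2 and 55.4 FPKM for L1, L2 and M7, so its ratio mostly follows the phosphatase.

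**Figure D2:**
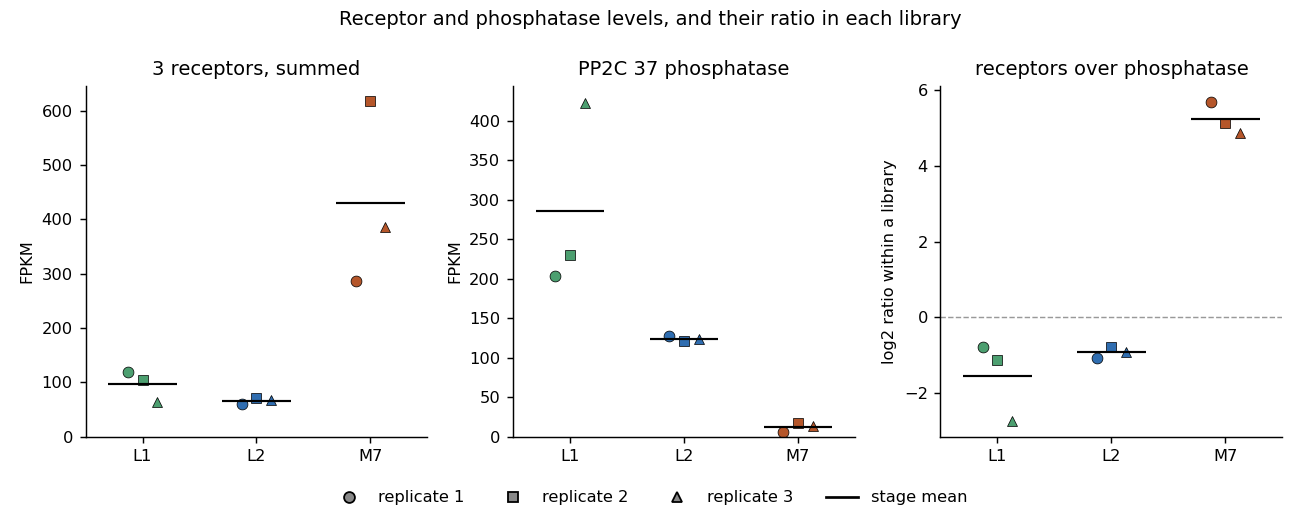
Summed FPKM of the 3 receptor members (left), FPKM of the PP2C member (middle) and the log2 ratio of the first to the second within each library (right), by stage. Points are libraries, lines are stage means, and the dashed line marks equal levels. The ratio was below 0 in all 6 seedling libraries and between 4.86 and 5.68 in M7.

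The 4 SnRK2 members did not move together. TRINITY_DN3774_c0_g2 was the only 1 of them that was higher in M7. It is matched to a SRK2I-like kinase in the file and to Arabidopsis SRK2E (OST1) in Swiss-Prot, both of subclass III, the kinases that ABA activates most strongly in Arabidopsis. Its levels were 13.80, 18.18 and 8.21 FPKM in L1, 26.93, 25.85 and 27.87 FPKM in L2, and 49.35, 42.20 and 54.26 FPKM in M7. The stages were separate and followed the order L1, L2, M7. The mean was 13.4 ± 4.997 FPKM for L1, 26.9 ± 1.01 for L2 and 48.6 ± 6.06 for M7 (SD, n = 3), 3.63-fold higher in M7 than in L1. Its log2 fold change of 1.84 (SE 0.28) between M7 and L1 lay just inside 2, so this member did not pass the DEG rule in any comparison here. With median ratio rescaling or quantile normalization it was 2.104 or 2.18, beyond that limit. The value ranged from 1.55 to 2.08 when single libraries were left out.

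TRINITY_DN3774_c0_g3 had the largest ratio of L1 to M7 of the kinases with values above 0 in every library. It is matched to a SAPK2 kinase of sesame and to rice SAPK1, kinases of subclass II, which in rice respond to osmotic stress and ABA. It stood at 62.36, 63.23 and 48.74 FPKM in L1, at 36.01, 41.90 and 41.17 FPKM in L2 and at 0.29, 3.36 and 2.47 FPKM in M7. No stage overlapped with another. The mean was 58.1 ± 8.13 FPKM for L1, 39.7 ± 3.21 for L2 and 2.04 ± 1.58 for M7 (SD, n = 3), so that L1 was 28.5-fold above M7. The log2 fold change was -4.45 (SE 0.42), with -5.26 and -3.18 at pseudocounts of 0.1 and 5.

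The SRK2I-like and the SAPK2 member come from 1 Trinity component, together with the SRK2I unigene TRINITY_DN3774_c0_g1. Reads of these 3 related sequences may have been shared out among them, so their separate levels are less certain than their sum. The sum was 98.6 ± 7.27 FPKM for L1, 96.6 ± 3.17 for L2 and 73.7 ± 17.2 for M7 (SD, n = 3). The SRK2I-like member made up 13.4% ± 4.13 of it for L1, 27.8% ± 1.08 for L2 and 69.0% ± 20.8 for M7. The SAPK2 member made up 58.8% ± 4.88, 41.1% ± 2.36 and 2.51% ± 1.79 in the same stages. The share of the SRK2I-like member was thus highest, and that of the SAPK2 member lowest, where the sum was lowest. Both members were chosen for their differences between stages.

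TRINITY_DN18489_c0_g1 was lower in M7 alone. It is matched to SnRK2.4 of tea and to rice SAPK3, names that belong to different SnRK2 subclasses, so its subclass is not settled by these matches. Its levels were 66.84, 67.30 and 46.58 FPKM in L1 and 60.59, 65.63 and 67.21 FPKM in L2, which overlapped. The M7 libraries held 2.78, 17.11 and 12.13 FPKM, all below the seedlings. The L1 mean of 60.2 ± 11.8 FPKM was 5.64-fold the M7 mean of 10.7 ± 7.28 FPKM (SD, n = 3). The log2 fold change was -2.65 (SE 0.52) between M7 and L1 and -1.97 without M7 replicate 1. Between L2 and L1 it was 0.11, with a negative sign after median ratio rescaling (-0.02) or without L1 replicate 3 (-0.06).

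TRINITY_DN3932_c0_g1 was the only member that passed the DEG rule between the seedling stages. It is matched to SnRK2-1 of a pear and to rice SAPK2, which mediates ABA responses in rice seedlings. It stood at 43.42, 48.91 and 37.11 FPKM in L1 and at 7.93, 7.05 and 6.39 FPKM in L2. In M7 it was listed at 0.00, 6.59 and 0.14 FPKM. The L1 libraries were above all others, and M7 replicate 2 lay within the range of L2, so M7 and L2 overlapped. The means were 43.1 ± 5.90 FPKM for L1, 7.12 ± 0.773 for L2 and 2.24 ± 3.76 for M7 (SD, n = 3). L1 was 6.06-fold above L2. The log2 fold change was -2.44 (SE 0.69) between L2 and L1 and -4.42 between M7 and L1. The latter ranged from -5.36 without M7 replicate 2 to -3.90 without M7 replicate 1. With pseudocounts of 0.1 and 5 it was -6.31 and -2.84, and the log2 fold change of -1.98 between M7 and L2 became -3.73 and -0.86.

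Of the whole SnRK2 family, 10 unigenes were found, the 4 members and 6 others. Their sum was 447 ± 40.4 FPKM for L1, 432 ± 8.62 for L2 and 365 ± 102 for M7 (SD, n = 3), with 256.6 FPKM in M7 replicate 1 and 460 and 379 FPKM in the other M7 libraries. The sums of the stages overlapped, while the makeup differed. The SAPK2, SnRK2.4 and SnRK2-1 members together made up 36.0% ± 2.59 of SnRK2 transcript for L1, 25.7% ± 0.916 for L2 and 3.66% ± 2.35 for M7. The 3 unigenes named SRK2E or SRK2I, 1 of them a member, made up 25.8% ± 0.948, 31.6% ± 1.35 and 43.2% ± 3.53 in the same stages (SD, n = 3). The members were chosen for their differences between stages, so these shifts in share were partly fixed by that choice. The SRK2E-like and SRK2I unigenes outside the members had adjusted p-values of 0.684 and 0.514 between M7 and L1 (limma).

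**Figure D3:**
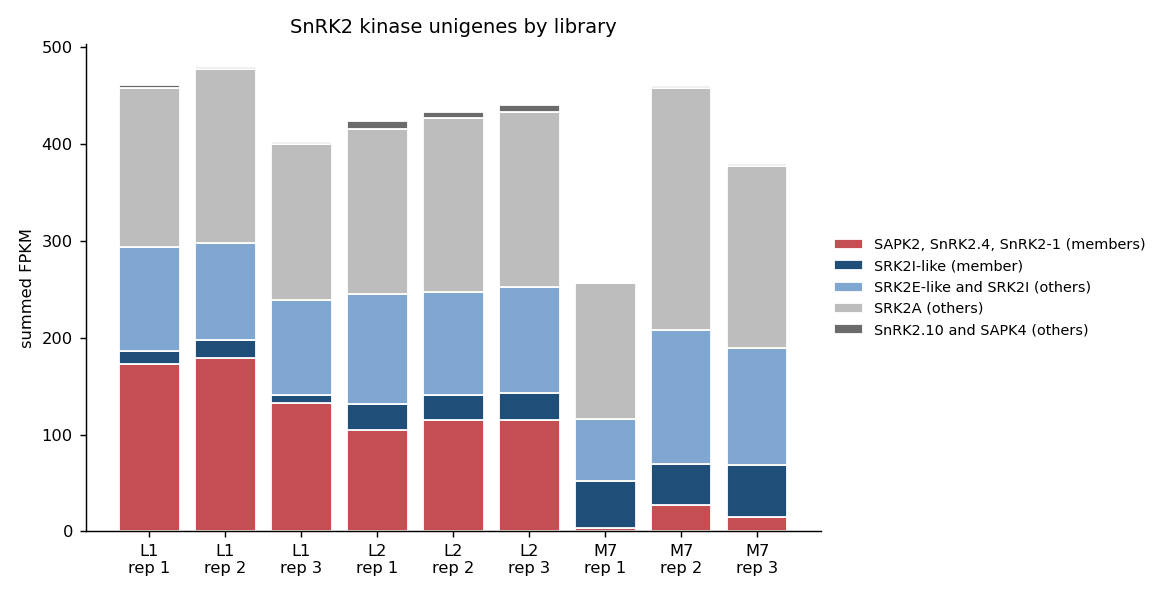
Summed FPKM of the 10 SnRK2 unigenes in each of the 9 libraries, stacked by group. The 3 members that were lower in M7 summed to 132 to 179 FPKM per L1 library and to 3.07 to 27.1 FPKM per M7 library, while the SRK2A unigenes were the largest part in each M7 library.

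The other 6 SnRK2 unigenes are those the study did not list as DEGs, so a small number of calls among them is partly fixed by that choice. SRK2A (TRINITY_DN10512_c0_g1), named for an Arabidopsis kinase of subclass I that is activated by salt and osmotic stress, was the most abundant of the family. Its stage means were 151.7, 137.2 and 186.9 FPKM for L1, L2 and M7, with a log2 fold change of 0.27 (SE 0.21) between M7 and L1 and an adjusted p of 0.375 by limma. The SRK2E-like TRINITY_DN1906_c0_g1 averaged 74.6, 79.8 and 84.8 FPKM for L1, L2 and M7, with a log2 fold change of 0.16 (SE 0.24) and an adjusted p of 0.684. None of the 6 passed the limma test between M7 and L1, and 0 of them had an unadjusted p under 0.05. The share of them that fell between M7 and L2 was 50%, against 56.5% of tested unigenes with a description. Of the 6, 3 fell and 0 rose there, also 0 at an unadjusted p under 0.05. One of these, the SRK2A unigene TRINITY_DN10512_c0_g2, met the DEG rule there although it is not a member, with L2 at 39.6 FPKM and M7 at 5.16 (limma, log2 fold change -3.26, adjusted p = 0.014).

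Between the seedling stages the members differed less. Under the DEG rule only the SnRK2-1 member was lower in L2, and none was higher, against 0.372% lower and 0.868% higher over all tested unigenes. The L2 and L1 libraries did not overlap for 5 members. The SRK2I-like kinase was higher in L2, and PP2CA, the SAPK2 and SnRK2-1 kinases and the PYL4-like TRINITY_DN1905_c1_g1 were lower. The background of such unigenes was 39.1% higher and 21.8% lower. Between M7 and L2, the DEG rule was met by the 3 receptors upward and by PP2CA and the SAPK2 and SnRK2.4 kinases downward, against 1.01% and 4.14%. The M7 and L2 libraries did not overlap for the same 6 members and for the SRK2I-like kinase, higher in M7, against a background of 9.64% higher and 58.5% lower. The comparisons with M7 and the comparison of the seedlings share libraries and are not independent of each other.

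The rest of the ABA pathway was read from lists set by words in the unigene descriptions. They held 113 unigenes outside the members, of which 89 passed the filter of at least 1 FPKM in at least 3 libraries. Between M7 and L1, 51 of the 89 fell and 4 rose by limma at an adjusted p under 0.05. That is 57.3% lower, against 35.1% of all tested unigenes, and 4.49% higher, against 9.37%. Among tested unigenes with a description, from which the lists were drawn, 43.7% were lower. Between M7 and L2, 48 fell and 5 rose (53.9% and 5.62%). The shares were 52.6% and 7.71% over all tested unigenes and 56.5% and 7.47% over described ones. Between L2 and L1, 26 fell and 11 rose (29.2% and 12.4%), against 14.8% and 26.1% of all tested and 17.4% and 21.8% of described unigenes.

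Leaving out M7 replicate 1 raised the number that rose from 4 to 9 between M7 and L1 and from 5 to 9 between M7 and L2. The latter number was 2 without L2 replicate 2 or M7 replicate 3 and 3 without L2 replicate 1 or 3. The median log2 fold change of the 89 between M7 and L1 was -1.32, against -0.48 over all tested unigenes. After quantile normalization both moved up, to -0.86 and -0.05. Of the 89 unigenes, 17 were matched to Hordeum vulgare, Quercus suber or Caryophyllales, and 16 of these fell between M7 and L1. Among all tested unigenes, 96.2% of the Caryophyllales matches did not reach 0.1 FPKM in any M7 library, against 19.6% of unigenes with other matches. Without these groups 34 of 72 list unigenes fell between M7 and L1, where 40.8% of all described unigenes outside the groups did, and the number that fell between L2 and L1 was 13 in place of 26. Their part in the member results was not tested, and no member is matched to them.

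**Figure D4:**
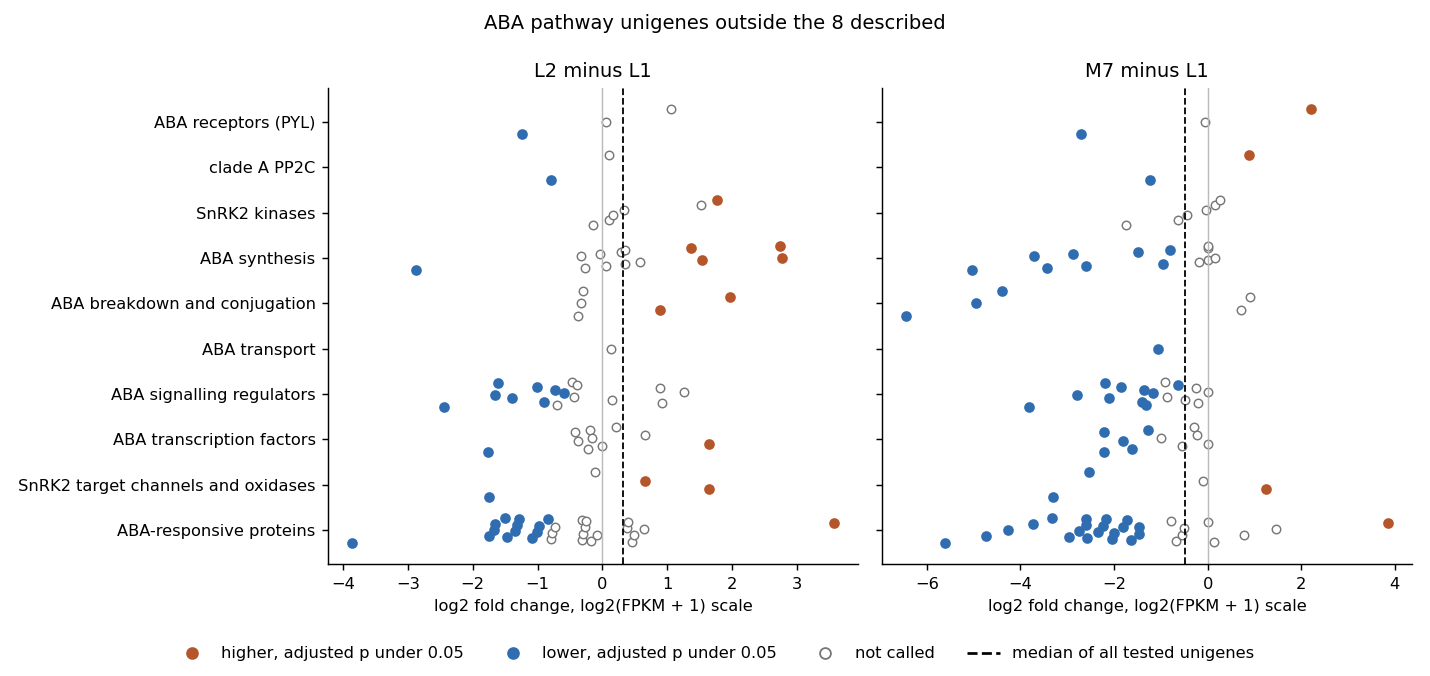
Log2 fold change on the log2(FPKM + 1) scale for the tested ABA pathway unigenes outside the members, by list, between L2 and L1 (left) and M7 and L1 (right). Filled points passed the limma test, orange higher and blue lower, open points did not, and the dashed line is the median of all tested unigenes (0.32 on the left and -0.48 on the right). Most lists lay to the left of that line between M7 and L1.

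In the list of ABA synthesis, 8 of 13 tested unigenes fell and 0 rose between M7 and L1 by limma, and 11 fell and 0 rose between M7 and L2. The shares that fell were 61.5% and 84.6%, against 40.8% and 53.3% of described unigenes outside the match groups, to which no unigene of this list belongs. The median log2 fold change of the list between M7 and L1 was -0.96, and -0.20 after quantile normalization. At an unadjusted p under 0.05 the number that rose was 0 in both comparisons. NCED1 (TRINITY_DN25604_c0_g1) cleaves carotenoids in what is taken as the limiting step of ABA synthesis. It stood at 96.74, 91.68 and 41.14 FPKM in L1 and at 2.70, 5.23 and 6.44 FPKM in M7. Its L2 mean was 91.0 ± 0.828 FPKM (SD, n = 3), and its log2 fold change between M7 and L1 was -3.71 (SE 0.38, adjusted p = 9.81e-05, limma). Another unigene of that cluster, the NCED1-like TRINITY_DN25604_c0_g2, fell from 51.6 FPKM in L1 to 3.58 in M7 (adjusted p = 0.000117). A molybdenum cofactor sulfurase-like unigene (TRINITY_DN1399_c0_g1), named for the enzyme that activates the aldehyde oxidase of the last step, fell from 81.0 FPKM to 1.82 between L1 and M7 (limma, log2 fold change -5.03, adjusted p = 3e-05). Another 2 sulfurase unigenes, TRINITY_DN25974_c0_g1 and TRINITY_DN33440_c0_g2, were listed at 0 in all L1 and M7 libraries and had 5.85 and 5.86 FPKM in L2. A xanthoxin dehydrogenase unigene (TRINITY_DN26864_c0_g2) was measured in L1 alone, at 6.75 FPKM, and was listed at 0 in the other libraries.

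ABA 8'-hydroxylases of the CYP707A family start the main route of ABA breakdown, and 3 of the 5 tested breakdown unigenes fell between M7 and L1 while 0 rose (1 at an unadjusted p under 0.05, limma). That is 60% lower, against 40.8% of described unigenes outside the match groups. The CYP707A2-like unigene TRINITY_DN335_c0_g1 held 180.62, 146.31 and 73.15 FPKM in L1 and 0.11, 0.92 and 0.43 FPKM in M7. It had the largest log2 fold change of the list, -6.44 (SE 0.36, adjusted p = 6.39e-06, limma), and 101 ± 6.58 FPKM in L2. The 8'-hydroxylase TRINITY_DN3724_c0_g1 averaged 33.8 FPKM for L1 and 22.7 for L2, and its M7 libraries were all listed at 0. The other 8'-hydroxylase, TRINITY_DN3866_c0_g1, rose from 21.5 in L1 to 38.9 FPKM in L2 (adjusted p = 0.0238) and stood at 0.0233 in M7. The 8'-hydroxylase 4 unigene TRINITY_DN12680_c0_g1 rose between L1 and L2 from 0.607 to 5.21 FPKM (adjusted p = 0.015), and its M7 libraries spread from 0.48 to 6.17 FPKM. Another match to that enzyme, TRINITY_DN2459_c0_g1, rose between L2 and M7 from 5.21 to 12.3 FPKM (adjusted p = 0.0163, limma).

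**Figure D5:**
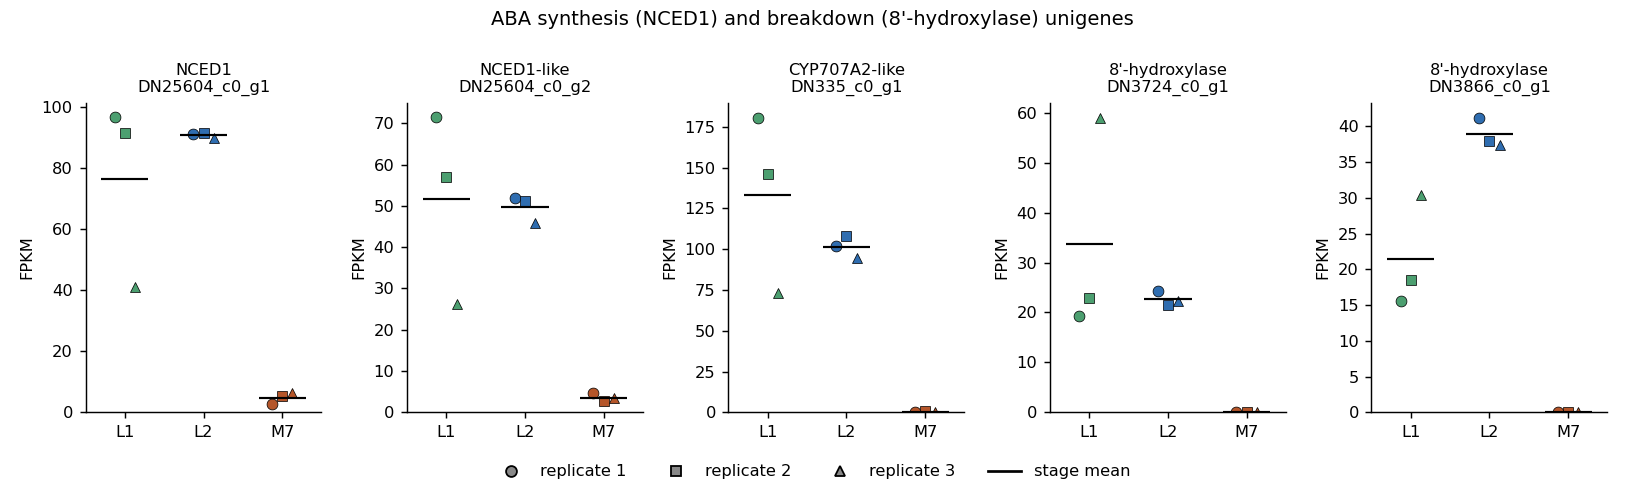
FPKM of 2 NCED1 unigenes of ABA synthesis and the 3 ABA 8'-hydroxylase unigenes of ABA breakdown that fell between M7 and L1, by stage. Points are libraries and lines are stage means. All 5 were under 7 FPKM in every M7 library and between 15.5 and 180.6 FPKM in every seedling library.

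Of 16 tested regulators that act on the core, 10 fell between M7 and L1 and 8 between L2 and L1, and 0 rose in either comparison by limma (0 and 1 at an unadjusted p under 0.05). That is 62.5% and 50%, against 43.7% and 17.4% of described unigenes. Between M7 and L2, 5 of the 16 fell, 31.3% against 56.5%. Proteins of the C2-DOMAIN ABA-RELATED family bring PYL receptors to membranes. Of these, TRINITY_DN12617_c0_g2 averaged 57.6 ± 10.2 FPKM for L1, 18.0 ± 1.02 for L2 and 12.4 ± 5.18 for M7 and fell in both comparisons with L1 (SD, n = 3; adjusted p = 0.00208 and 0.000399, limma). The family member 4-like unigene TRINITY_DN14094_c0_g1 also fell in both, with means of 42.8, 11.99 and 5.37 FPKM for L1, L2 and M7 (adjusted p = 0.0156 and 0.00103). The most abundant of them, TRINITY_DN21317_c0_g3, stood at 54.57, 65.43 and 45.04 FPKM in L1 and at 33.32, 53.86 and 51.79 FPKM in M7 (log2 fold change -0.26, adjusted p = 0.461). The ninja-family protein MODD, which in rice counters ABA signalling through a bZIP factor, fell likewise, from a mean of 14.7 FPKM for L1 to 1.73 for L2 and 0.0567 for M7 (TRINITY_DN11727_c0_g1, adjusted p = 0.000244 and 3.01e-05).

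Downstream of the kinases, 5 of 10 tested unigenes in the list of transcription factors fell between M7 and L1 and 0 rose, also 0 at an unadjusted p under 0.05. The share that fell was 50%, near the 40.8% of described unigenes outside the match groups. That list includes 4 ARM repeat proteins that bind the factor ABF2 and are not factors themselves. The ABI5-like protein 7 unigene (TRINITY_DN1470_c0_g3), of the bZIP group that SnRK2 kinases phosphorylate, averaged 28.9 ± 9.44 FPKM for L1, 23.97 ± 0.556 for L2 and 6.14 ± 3.85 for M7 (SD, n = 3). It fell between L1 and M7 by 2.22 on the log2 scale (adjusted p = 0.0053, limma). The ABI5-like protein 2 unigene TRINITY_DN2762_c0_g2 fell by the same log2 value of -2.22, from a mean of 16.7 FPKM to 3.71 (limma, adjusted p = 0.0114). Of 4 tested SnRK2 target channels and oxidases, 2 fell and 1 rose between M7 and L1 by limma, and likewise between M7 and L2. Those shares are 50% and 25%. Over described unigenes they were 43.7% and 8.6% between M7 and L1 and 56.5% and 7.47% between M7 and L2. Among the channels, an S-type anion channel unigene (TRINITY_DN1557_c0_g1), of the family of the guard cell channel SLAC1, rose from 29.4 in L1 to 46.8 FPKM in L2 (adjusted p = 0.0186). It then fell to 2.05 ± 0.184 FPKM in M7 (log2 fold change -3.31 against L1, adjusted p = 6.13e-06). The only unigene of the ABA transport list that passed the filter, an NPF4.6-like importer (TRINITY_DN113384_c0_g1), fell from 1.18 to 0.0367 FPKM, but its log2 fold change of -1.07 became 0.07 after quantile normalization.

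Proteins whose genes respond to ABA formed the largest list. Of 29 tested, 20 fell and 1 rose between M7 and L1, and 13 fell and 1 rose between L2 and L1. The shares that fell were 69.0% and 44.8%, against 43.7% and 17.4% of described unigenes. All 10 matches to Caryophyllales and the other groups named above were among the 20. Of the 19 other tested unigenes 10 fell, 52.6% against 40.8% of described unigenes outside those groups. The 11 seed marker unigenes (oleosins and oil body proteins) had a summed level of 31.2 to 35.2 FPKM per library of L1, 28.8 to 33.0 of L2 and 6.99 to 39.95 of M7, and 4 of the 11 were under 0.1 FPKM in every M7 library. Most of each L2 sum and of the M7 replicate 1 sum came from 1 oleosin unigene, TRINITY_DN106980_c0_g1. It stood at 0.35 to 3.12 FPKM in L1, 21.76 to 24.23 in L2 and 33.73, 4.22 and 1.45 in M7. The similar sums of L1 and L2 therefore rested on this unigene. Of the 8 seed marker unigenes tested, 5 fell and 1 rose between L2 and L1, and 5 fell between M7 and L1. Their part in these counts was not tested. RD22 (TRINITY_DN3368_c0_g1), a dehydration-responsive protein, fell between L1 and L2 from 25.9 ± 1.91 FPKM to 7.53 ± 0.236 (SD, n = 3; adjusted p = 6.54e-05, limma) and was listed at 0 in all M7 libraries. The late embryogenesis abundant (LEA) protein D-29 unigene TRINITY_DN19555_c0_g1 fell from 19.4 in L1 to 0.390 FPKM in L2 (adjusted p = 3.93e-06). A Lea14-A unigene, TRINITY_DN31493_c0_g1, stood out in L2 with 68.39, 73.01 and 79.71 FPKM, against 1.63 to 10.49 FPKM in L1 (adjusted p = 0.000375) and under 1 FPKM in M7. The only riser in M7 against L1 was TRINITY_DN110600_c0_g1, matched to the LEA protein At1g64065, with 4.65 ± 0.740 FPKM in L1 and 82.6 ± 23.1 in M7 (SD, n = 3; log2 fold change 3.86, adjusted p = 1.42e-05). Another match to that protein, TRINITY_DN18596_c0_g1, had 182 FPKM in L1 and 608 in M7 (adjusted p = 0.0502), with M7 replicate 1 at 189.72 FPKM.

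The PP2C unigenes that the lists did not take as clade A were set beside the phosphatase member. Their names do not settle their clade, so clade A phosphatases may be among them. The set held the PP2C 53 unigene TRINITY_DN136_c0_g1, which fell from 49.7 FPKM in L1 to 20.8 in M7 (limma, adjusted p = 0.0169). It also held a PP2C 50-like unigene, TRINITY_DN22801_c0_g1, which fell from 3.67 to 0.0833 FPKM (limma, adjusted p = 3.73e-05). Of 42 tested unigenes, 23 fell and 1 rose between M7 and L1, which is 54.8% and 2.38%, against 43.7% and 8.60% of described unigenes. Outside the match groups named above 13 of 28 fell, 46.4% against 40.8% of described unigenes. Between L2 and L1, 9 fell and 8 rose, 21.4% and 19.0% against 17.4% and 21.8% of described unigenes. Their median log2 fold change between M7 and L1 was -1.46, or -0.81 after quantile normalization, and that of the PP2CA member was -4.49, or -3.98. The member was chosen for its difference between stages, so a value far from this median was partly fixed by that choice.

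For each member the 3 described unigenes with the most similar profile over the 9 libraries were found among 4458 with a highest stage mean over 30 FPKM. These correlations describe the profiles only, since the 9 points are 3 stages with shared libraries. The closest to PP2CA was a match to NLP2, a factor of the nitrate-responsive NIN-like family, with a Pearson r of 0.999 and 49.0, 22.3 and 2.06 FPKM in L1, L2 and M7. The closest to the SAPK2 member was a beta-glucosidase 12-like unigene (r = 0.998), followed by the auxin-responsive repressor IAA13 (r = 0.998). The closest to the SnRK2-1 member was an E3 ubiquitin-protein ligase matched to At1g63170 (r = 0.987). That member had r of 0.981 with both a cytochrome P450 710A11-like unigene, named for a sterol desaturase, and 3-hydroxy-3-methylglutaryl-CoA reductase of the mevalonate pathway. The reductase averaged 52.4, 22.6 and 6.38 FPKM for L1, L2 and M7. The SRK2I-like member was closest to a Yip1 domain protein (r = 0.991). TRINITY_DN1905_c0_g2 was closest to a UV excision repair protein, and TRINITY_DN1905_c1_g1 to a glutathione S-transferase (r = 0.983).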

How the data were processed

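For 9 D. asperoides root libraries, the authors used FastQC and fastx_toolkit for quality control and trimming, Trinity for the assembly and RSEM for unigene levels. The deposited values are called FPKM here. TPM also appears in the methods, and summed values of 611088 to 695070 per library do not tell them apart. Unigene descriptions are those of the table, and Swiss-Prot names those of the study's annotation. No assembled sequence was used here. Stage differences were fitted with limma 3.58.1 (R 4.3.3) on log2(FPKM + 1), as a single fit of the 9 libraries with a variance trend and without a replicate block. Fold changes on that scale understate those of low unigenes. The 34925 unigenes that reached 1 FPKM in 3 or more libraries were tested, and p-values were adjusted over all of them by Benjamini-Hochberg. The fit was tested on simulated data. All 8 members passed this filter.

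The members, the word lists and the alternatives were chosen with earlier results of these data known. Named list unigenes were up to 3 with the largest rise and 3 with the largest fall between M7 and L1 and up to 2 each way between L2 and L1 (adjusted p under 0.05, highest stage mean at least 5 FPKM, libraries not overlapping), plus the highest in mean FPKM. Other unigenes of the members' families and read clusters, and those singled out among markers and risers, were named after their values were seen. Not every unigene that this rule allows is described. The replicates are labelled biological, and p-values set a difference between stages against the spread between these samples. Alternatives were pseudocounts, filters, rescalings, variance models, fits of 2 stages, the block and left-out libraries.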

Additional observations from a re-analysis of the deposited data

How the results depend on the processing

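Over 360 values of the 8 members under alternative settings, 337 moved by less than the spread between replicates, 18 moved further and 5 changed sign, all 5 between L2 and L1. The PYL9-like member went from -0.17 to 0.0041 on the log2 scale without L1 replicate 3, also with M7 replicate 1 left out. The SnRK2.4 member went from 0.11 to -0.0226 with median ratio rescaling and to -0.0574 without L1 replicate 3, also with M7 replicate 1 left out. With single libraries left out these differences ranged from -0.296 to 0.0041 and from -0.0574 to 0.2034. No member changed its direction between M7 and L1 or between M7 and L2 under any setting run.

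Counts of list unigenes outside the members depended more on the setting. With a filter of at least 5 FPKM, 48 were tested in place of 89, so these counts have a smaller base. Of the 48, 4 rose and 7 fell between L2 and L1, 27 fell between M7 and L1, and 3 rose and 27 fell between M7 and L2. In the main fit 51 and 48 of the 89 fell in the last 2 comparisons. Without the unigenes matched to Hordeum vulgare, Quercus suber or Caryophyllales, 13 of 72 fell between L2 and L1. With median ratio rescaling 7 rose between M7 and L1 and 10 between M7 and L2. With quantile normalization 10 and 16 rose in these comparisons and 30 fell between M7 and L2. Without L1 replicate 3 and M7 replicate 1, 9 rose between M7 and L1 and 11 between M7 and L2. With single libraries left out, 8 to 13 rose and 21 to 30 fell between L2 and L1, 3 to 9 rose and 46 to 51 fell between M7 and L1, and 2 to 9 rose and 38 to 55 fell between M7 and L2. The difference in the log2 ratio of receptors to phosphatase was then 0.03 to 1.01, 6.18 to 7.15 and 5.91 to 6.32 in the same 3 comparisons. With all listed receptors and phosphatases summed it was 6.06 between M7 and L1 and 5.2003 between M7 and L2. The causes were not tested.

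Replicates of different stages share only a number, with correlations of their deviations from -0.053 to 0.053 for equal numbers. With the replicate block 11 rose and 24 fell between L2 and L1, 5 and 49 between M7 and L1, and 5 and 44 between M7 and L2. Read depth per value is unknown, so members near 0 in M7 have no detection limit.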
